A study of Mus musculus with 10 samples.

Results

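Kinetochores are the protein assemblies that build on the centromere of each chromosome and hold it to spindle microtubules during cell division. The genes described here encode the parts of that assembly, the spindle checkpoint that watches over attachment, and the machinery that starts anaphase. They were chosen by gene name, 43 mouse symbols in all, by mapping the Ensembl identifiers of the deposited count table without their versions. All 43 were found, each on 1 row among 55385 gene identifiers, and all 43 were among the 17997 genes that passed the filter on low counts and were tested.

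At the base of the assembly, nucleosomes with the histone variant CENP-A mark the centromere, and a network of CENP proteins stays bound to them. In mitosis this network recruits the outer kinetochore, which binds microtubules. Unattached kinetochores produce an inhibitor of the anaphase-promoting complex, a ubiquitin ligase, and once all chromosomes are attached the ligase destroys securin, which frees separase to cut the cohesin rings between sister chromatids. Most of these genes are transcribed mainly in dividing cells, and adult lung endothelium is known as a tissue with little division at rest.

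The RNA came from sorted lung endothelial cells of mice in which both copies of Tnfsf10, which encodes the death ligand TRAIL, carry loxP sites (Tnfsf10 L/L). The 5 libraries labelled EC-TRAIL KO are Cdh5.Cre Tg/W, so they carry an inducible Cre (Cdh5.iCreERT2) that the promoter of the endothelial cadherin gene drives, and the 5 libraries labelled Control are Cdh5.Cre W/W, without it. Mice were 8 to 14 weeks old. As the way in which deletion was induced, the labels give 1 mg of tamoxifen a day for 5 or 10 days. They give this for libraries of both groups, without saying which library had which schedule. Every library labelled EC-TRAIL KO also carries the transgene, so the deletion, the transgene and Cre activity cannot be told apart here. A difference in tamoxifen schedule between the groups, if there was one, cannot be told apart from them either. The design text names 4 transgenic animals where the labels name 5 libraries; all 5 were used. Nothing in the labels ties a library to a mouse of its own, and the p-values below therefore reflect library-to-library spread only, which may be technical in part.

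Library totals were 29806083 to 34702571 expected counts in libraries labelled EC-TRAIL KO and 34435835 to 56897822 in Control libraries. Tnfsf10 was at 198.9, 318, 126.3, 169.3 and 80.99 CPM (counts scaled to a common library size) in libraries labelled EC-TRAIL KO 1 to 5, against 373.6, 369.5, 298.2, 323.3 and 304.6 CPM in Controls 1 to 5. The library labelled EC-TRAIL KO 2 lay inside the Control range, so results are also given without it. Over all 10 libraries the log2 fold change of Tnfsf10 was -0.90 (SE 0.276) and did not pass (edgeR adjusted p = 0.425), and without that library Tnfsf10 was the only gene called lower. All 8 endothelial markers were detected in every library, with summed levels of 9820 to 11600 CPM in libraries labelled EC-TRAIL KO and 9900 to 11600 CPM in Controls. The 10 alveolar epithelial markers were also detected in every library, with sums of 6680 to 9750 CPM in libraries labelled EC-TRAIL KO and 8060 to 12100 CPM in Controls; the lowest of the 10 libraries was EC-TRAIL KO 2. Sums of the 12 leukocyte markers were 73.4 to 94.5 CPM in libraries labelled EC-TRAIL KO and 71.7 to 101 CPM in Controls, and Cd3e and Marco were at 0 counts in at least 1 library. Fibroblast and mural markers summed to 468 to 743 CPM in libraries labelled EC-TRAIL KO and 588 to 721 CPM in Controls, and erythroid and megakaryocyte markers to 11.7 to 28.9 CPM in libraries labelled EC-TRAIL KO and 15.5 to 45 CPM in Controls. Of the tested markers of these lists 0 passed in either direction with edgeR, DESeq2 or limma-voom; at an unadjusted edgeR p under 0.05, 1 endothelial marker was lower and 1 erythroid or megakaryocyte marker higher. All 10 alveolar markers had a log2 fold change below 0 (median -0.16), as had 8 of the 10 fibroblast and mural markers (median -0.10). Of the tested leukocyte markers 5 of 7 were below 0 (median -0.047), and of erythroid and megakaryocyte markers 4 of 7 (median -0.19). Of the 8 endothelial markers 5 were above 0 (median 0.07). Over all tested genes 47.4% were above 0. The part of these cells in the results below was not tested.

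Of the 43 members, 10 were higher in libraries labelled EC-TRAIL KO than in Controls, 0 were lower and 33 did not pass (edgeR quasi-likelihood test, Benjamini-Hochberg adjusted p under 0.05 over all tested genes). Those that rose were Cenpa, Cenpi, Nuf2, Knl1, Cenpe, Cenpf, Bub1b, Sgo2a, Cdc20 and Ube2c, at least 1 in each functional group. They made up 23.3% of the members, where 0.439% of all tested genes were called higher and 0% lower. Their log2 fold changes ran from 1.22 to 2.60, with standard errors (SE) of 0.232 to 0.401 and edgeR adjusted p of 0.0432 to 0.0438. In 19 members, or 44.2%, every library labelled EC-TRAIL KO lay above every Control, against 1.38% of all tested genes; in 0 members every library lay below, against 0.261% of all tested genes. The median log2 fold change of the 43 was 0.94, that of all tested genes was -0.0085, and 42 members had a value above 0, against 47.4% of all tested genes. In bulk RNA, fewer cells of a type and less RNA per cell cannot be told apart, so these values do not say whether more cells were in division or dividing cells held more of each transcript.

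The adjusted p-values lay just under the threshold, and the call depended on the libraries used. With all 10 libraries 31 members were higher and 1 lower at an unadjusted edgeR p under 0.05, against 3.81% of all tested genes higher and 1.32% lower. When EC-TRAIL KO 3, EC-TRAIL KO 4 or any single Control was dropped, edgeR called 0 of 43 members, and only 2 of all tested genes higher. At an unadjusted edgeR p under 0.05, 30 or 31 members were then higher and 0 lower. Among the 18196 to 18306 genes tested in these fits, 577 to 789 were higher and 187 to 336 lower at that p. The log2 fold changes of the 10 lay between 1.18 and 2.76. Without EC-TRAIL KO 2, the library with the highest values, 11 members passed, namely the same 10 and Espl1, where 0.476% of all genes tested in that fit were called higher and 0.00548% lower; the 10 then had log2 fold changes of 0.91 to 2.17. DESeq2 on all 10 libraries called 21 members higher and 0 lower, among 1.16% of all tested genes called higher and 0.0167% called lower. With limma-voom 0 members and 2 of all tested genes were called. At an unadjusted limma-voom p under 0.05, 30 members were higher and 1 lower, against 668 higher and 253 lower of all 17997 tested genes. The log2 fold changes of the 10 stayed above 0 in all 18 alternative settings, and in 9 of these settings none of the 10 passed. Their groups did not overlap, so leaving out a library could not turn the sign, which is no separate evidence.

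**Figure D1:**
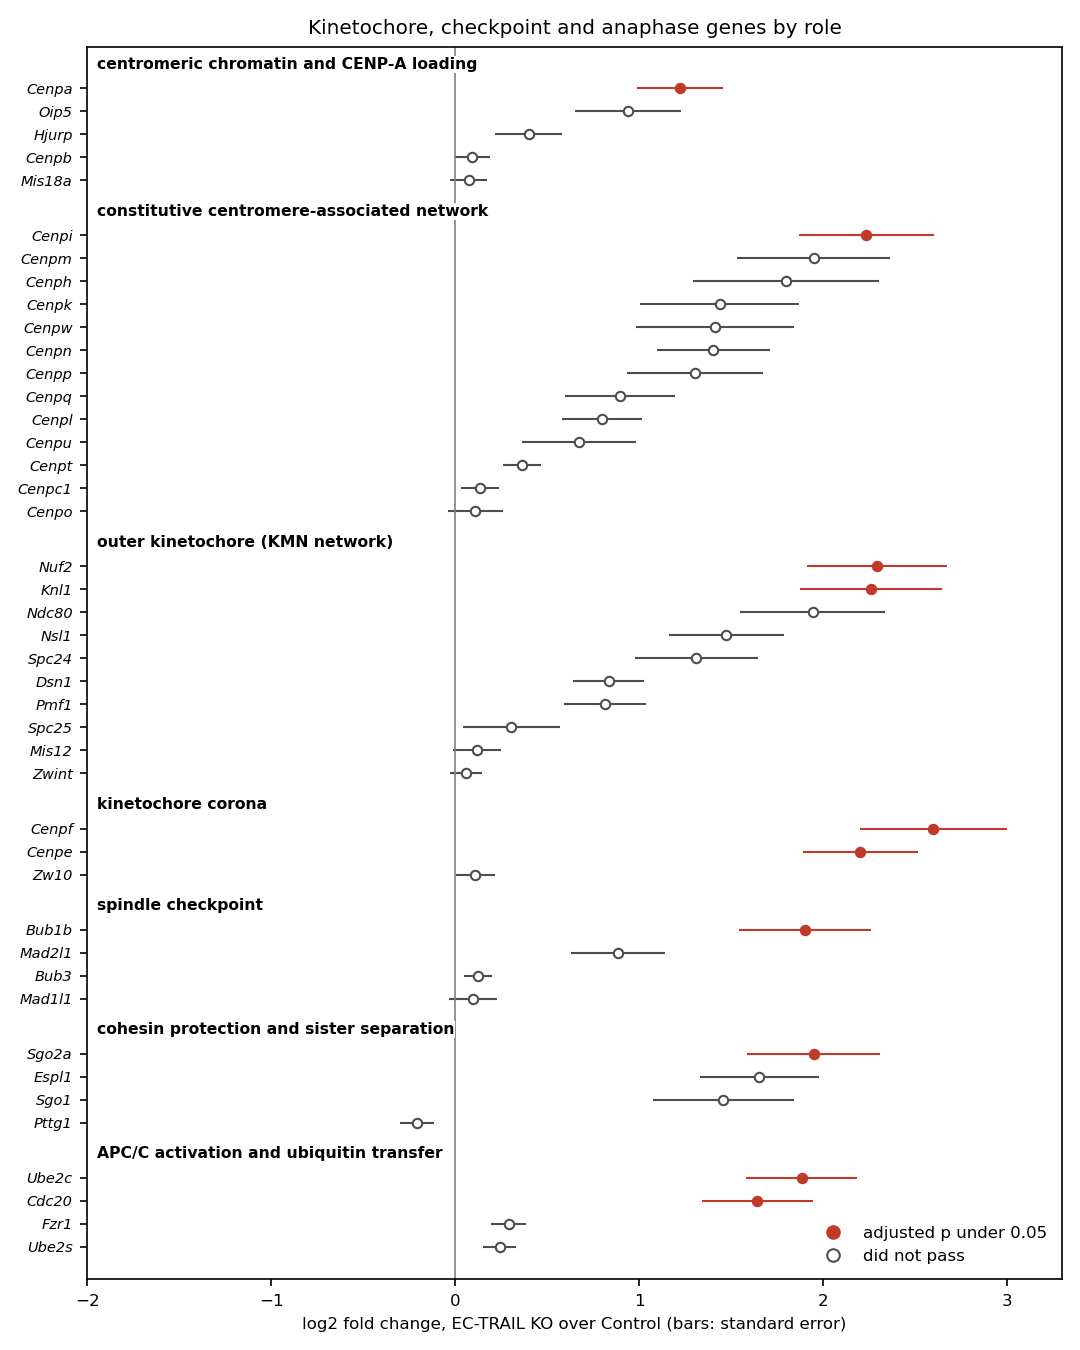
Log2 fold change, EC-TRAIL KO over Control, of the 43 members in 7 functional groups; points are edgeR estimates, bars are standard errors, and filled points passed (adjusted p under 0.05). Each group holds at least 1 member that passed and at least 1 at 0.24 or lower, and Pttg1 (-0.21) is the single member below 0.

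**Figure D2:**
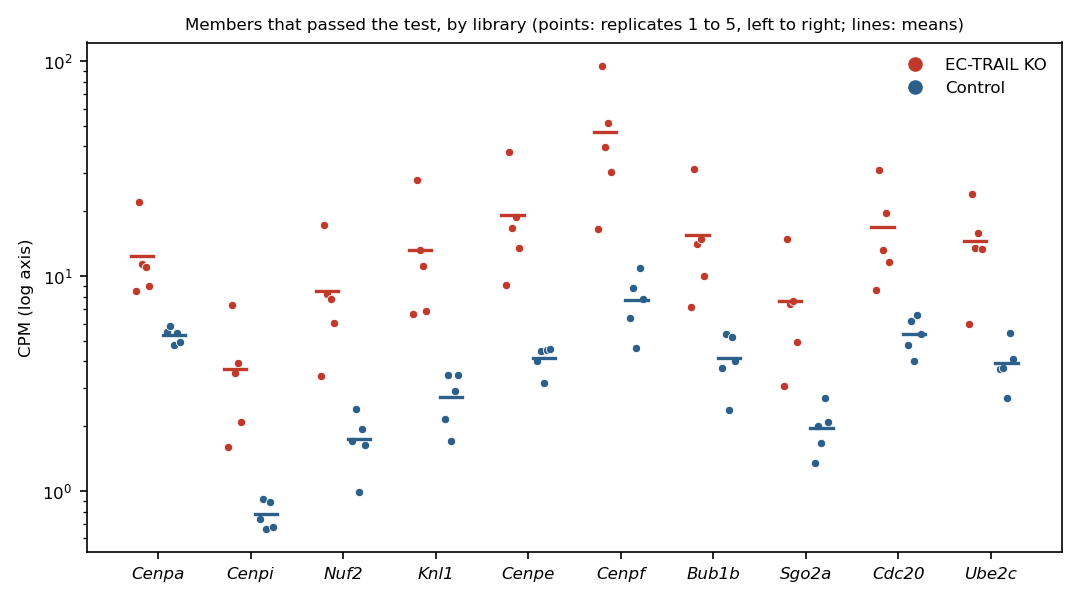
CPM on a log axis of the 10 members that passed, with EC-TRAIL KO libraries at the left of each pair and Control libraries at the right; points are libraries (replicates 1 to 5 from left to right) and lines are means. The 5 EC-TRAIL KO points lie above the 5 Control points in each gene, with EC-TRAIL KO 2 highest and EC-TRAIL KO 1 lowest of their group.

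Promoters are shown for the 4 members with the smallest p (Cenpe, Cenpf, Ube2c and Cenpi), because genes that peak late in the cell cycle are known for a pair of short promoter elements, the CHR element TTTGAA, bound by the MuvB complex with its partners, and the CCAAT box, bound by NF-Y. Each line gives 250 bases before and 30 bases after the RefSeq start of the gene on its own strand (RefSeq, GRCm38.p6), with matches to either motif on either strand in capitals. Cenpe is at chr3:135212313-135212592 on the plus strand, Cenpf at chr1:189688057-189688336 on the minus strand, Ube2c at chr2:164769679-164769958 on the plus strand and Cenpi at chrX:134307834-134308113 on the plus strand.
Cenpe: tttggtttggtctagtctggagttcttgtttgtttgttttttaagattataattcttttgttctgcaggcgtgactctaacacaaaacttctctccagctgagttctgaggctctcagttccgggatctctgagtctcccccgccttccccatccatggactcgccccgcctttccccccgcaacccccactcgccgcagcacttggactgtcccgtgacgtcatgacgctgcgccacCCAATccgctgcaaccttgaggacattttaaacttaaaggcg
Cenpf: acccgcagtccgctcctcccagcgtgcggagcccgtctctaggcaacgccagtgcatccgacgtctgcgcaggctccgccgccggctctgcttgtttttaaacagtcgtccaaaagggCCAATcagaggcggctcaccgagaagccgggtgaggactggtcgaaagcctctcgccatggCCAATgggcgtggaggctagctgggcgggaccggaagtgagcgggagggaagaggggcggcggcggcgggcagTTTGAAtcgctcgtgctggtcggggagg
Ube2c: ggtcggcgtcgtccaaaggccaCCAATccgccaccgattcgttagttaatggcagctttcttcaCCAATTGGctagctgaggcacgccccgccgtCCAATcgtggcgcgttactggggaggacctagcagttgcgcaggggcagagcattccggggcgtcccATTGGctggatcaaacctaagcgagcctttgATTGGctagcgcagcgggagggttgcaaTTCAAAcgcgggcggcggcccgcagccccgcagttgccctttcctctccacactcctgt
Cenpi: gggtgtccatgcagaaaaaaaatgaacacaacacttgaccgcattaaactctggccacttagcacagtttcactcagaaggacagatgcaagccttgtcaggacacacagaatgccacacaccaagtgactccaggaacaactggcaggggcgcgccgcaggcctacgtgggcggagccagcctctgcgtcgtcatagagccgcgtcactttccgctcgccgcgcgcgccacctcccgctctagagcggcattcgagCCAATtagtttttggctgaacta
The Ube2c window held 6 CCAAT matches and 1 CHR match, that of Cenpf 2 CCAAT matches and 1 CHR match, and those of Cenpe and Cenpi 1 CCAAT match each and no TTTGAA. In Ube2c the CHR match starts 29 bases before the gene's start and is on the opposite strand, and a pair of its CCAAT matches, 1 on each strand, overlap by 2 bases. Of the 10 members that passed, 4 held TTTGAA (40.0%; Cdc20, Cenpa, Cenpf and Ube2c) and 8 held CCAAT (80.0%), and neither motif was found in Knl1 and Nuf2. Of the 31 others with a window in the table, 9 held TTTGAA (29.0%) and 17 held CCAAT (54.8%). Over the 11998 tested genes with a window, 14.3% held TTTGAA and 41.2% held CCAAT. Over all 27025 genes with a RefSeq window the shares were 19.5% for TTTGAA and 39.7% for CCAAT. Windows were matched by symbol for 41 of the 43 members, all but Spc24 and Nsl1, and a match is a description of letters, not of a bound factor.

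Centromeric chromatin was represented by 5 members, of which 1 rose and 4 did not pass. Cenpa, the gene of the histone variant itself (ENSMUSG00000029177, GRCm38 chromosome 5, 30666777 to 30674830, plus strand), was at 8.46, 22.0, 11.4, 10.9 and 8.995 CPM in libraries labelled EC-TRAIL KO, against 5.48, 5.83, 4.74, 5.44 and 4.91 CPM in Controls. The groups did not overlap, and EC-TRAIL KO 2 stood well above the other 4 of its group. Cenpa averaged 12.3 ± 5.52 CPM in libraries labelled EC-TRAIL KO and 5.28 ± 0.445 CPM in Controls (SD, n = 5 each). The log2 fold change of 1.22 was the smallest among the 10 that passed (SE 0.232, adjusted p = 0.0438 by edgeR). The loading factors of CENP-A differed in level. Hjurp, its chaperone, averaged 146 ± 45.6 CPM in libraries labelled EC-TRAIL KO and 111 ± 15.0 CPM in Controls (SD, n = 5 each), with a log2 fold change of 0.40 (edgeR adjusted p = 0.963). Oip5, a subunit of the Mis18 complex that licenses loading, averaged 1.54 ± 0.653 CPM in libraries labelled EC-TRAIL KO and 0.80 ± 0.0989 CPM in Controls (SD, n = 5 each), with a log2 fold change of 0.94 (edgeR adjusted p = 0.438). Oip5 exons share 172 bases with Nusap1, a spindle gene on the opposite strand that itself rose (log2 fold change 1.98; edgeR adjusted p = 0.0482). The Oip5 partner Mis18a had 7.72 to 8.49 CPM in libraries labelled EC-TRAIL KO and 6.74 to 8.40 CPM in Controls, a log2 fold change of 0.07. Cenpb, which binds a centromeric DNA motif, had the highest level per exon length of all members, 37.5 CPM per kb in libraries labelled EC-TRAIL KO and 35.2 CPM per kb in Controls, and a log2 fold change of 0.09 (both edgeR adjusted p = 0.997).

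The constitutive centromere-associated network, which links CENP-A nucleosomes to the outer kinetochore, had 13 members, of which 1 rose and 12 did not pass, with a median log2 fold change of 1.30. Cenpi (ENSMUSG00000031262, chromosome X, 134308084 to 134362639, plus strand) belongs to a subcomplex with Cenph, Cenpk and Cenpm. It was at 1.605, 7.33, 3.52, 3.94 and 2.09 CPM in libraries labelled EC-TRAIL KO, against 0.742, 0.918, 0.662, 0.889 and 0.680 CPM in Controls. No Control reached 1 CPM and no library labelled EC-TRAIL KO was below it. The log2 fold change was 2.24 (SE 0.366, adjusted p = 0.0432 by edgeR). The partners of Cenpi had log2 fold changes of 1.95 for Cenpm, 1.80 for Cenph and 1.44 for Cenpk, with edgeR adjusted p of 0.0773, 0.304 and 0.406. Their Control means were 0.576 CPM for Cenpm, 0.345 CPM for Cenph and 0.350 CPM for Cenpk, and the SE was 0.507 for Cenph, the widest of all members.

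Cenpn and Cenpl, which form a pair that recognises CENP-A nucleosomes, had log2 fold changes of 1.40 and 0.80, and in both every library labelled EC-TRAIL KO lay above every Control (edgeR adjusted p = 0.0895 and 0.273). Cenpn averaged 3.72 ± 2.03 CPM in libraries labelled EC-TRAIL KO and 1.40 ± 0.192 CPM in Controls (SD, n = 5 each). Members of a further subcomplex, Cenpo, Cenpp, Cenpq and Cenpu, had log2 fold changes of 0.11, 1.30, 0.90 and 0.67, and none passed (edgeR adjusted p = 0.997, 0.307, 0.550 and 0.974). The sign of Cenpo turned without EC-TRAIL KO 2 (-0.027). Exons of Cenpo share 1380 bases with Adcy3 on the opposite strand, and those of Cenpu share 1069 bases with Primpol. Besides that of Oip5, opposite-strand overlaps of 53 to 315 bases were present in Cenpo (Ptrhd1), Cenpp (Ippk), Cenpk (Ppwd1), Cenpq (Mut), Mis12 (Derl2), Ube2s (Rpl28) and Cdc20 (Elovl1). Overlaps of 37 bases or fewer were present in Cenpp (Aspn), Cenpt (Tsnaxip1), Mad1l1 (Gm16121) and Fzr1 (Mfsd12). Thus without a stated strand setting their reads cannot be fully told apart from those of the neighbours. This also holds for Sgo2a and Ube2c, whose overlaps are given below. Exons of Cenpb share 20 bases with Spef1 on the same strand, which a strand setting could not resolve. Cenpt and Cenpw, which carry histone folds and hold a second route to the outer kinetochore, had log2 fold changes of 0.36 and 1.41 (edgeR adjusted p = 0.317 and 0.421), and Cenpt was at 12.6 to 17.9 CPM in libraries labelled EC-TRAIL KO, above the 10.4 to 11.7 CPM of Controls. Cenpc1, the main bridge from the nucleosome outward, had 17.7 to 23.6 CPM in libraries labelled EC-TRAIL KO and 16.3 to 21.2 CPM in Controls, a log2 fold change of 0.13 (edgeR adjusted p = 0.997). In all 13 members of the network EC-TRAIL KO 2 had the highest value of its group.

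The outer kinetochore had 10 members, of which 2 rose and 8 did not pass, with a median log2 fold change of 1.07. Knl1, the scaffold on which checkpoint proteins gather (ENSMUSG00000027326, chromosome 2, 119047119 to 119105501, plus strand), was at 6.62, 28, 13.1, 11.2 and 6.84 CPM in libraries labelled EC-TRAIL KO, against 2.17, 3.45, 1.71, 2.93 and 3.46 CPM in Controls. Its log2 fold change was 2.26 (SE 0.384, adjusted p = 0.0432 by edgeR), with no overlap between the groups. Zwint, which binds Knl1, was at 51.0 to 68.3 CPM in libraries labelled EC-TRAIL KO and 49.1 to 59.0 CPM in Controls, a log2 fold change of 0.06 (edgeR adjusted p = 0.997) that turned to -0.026 without EC-TRAIL KO 4.

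The 4 subunits of the NDC80 complex, which grips the microtubule, did not move alike. Nuf2 (ENSMUSG00000026683, chromosome 1, 169497934 to 169531464, minus strand) was at 3.41, 17.2, 8.27, 7.81 and 6.04 CPM in libraries labelled EC-TRAIL KO, against 1.71, 2.41, 0.983, 1.93 and 1.63 CPM in Controls. Its log2 fold change was 2.29 (SE 0.380, adjusted p = 0.0432 by edgeR), and all libraries labelled EC-TRAIL KO were above all Controls. Ndc80, its partner in the microtubule-binding heads, was at 3.36, 14.2, 6.54, 5.41 and 3.68 CPM in libraries labelled EC-TRAIL KO, against 1.77, 2.38, 1.05, 2.19 and 1.15 CPM in Controls, and its log2 fold change of 1.94 did not pass (SE 0.395, adjusted p = 0.0616 by edgeR). Spc24, at the inner end, had a log2 fold change of 1.31 (edgeR adjusted p = 0.197). Spc25, the partner of Spc24, was at 13.1, 21.3, 17.9, 32.9 and 14.0 CPM in libraries labelled EC-TRAIL KO, against 13.8, 14.0, 12.6, 25.7 and 14.2 CPM in Controls, a log2 fold change of 0.31 (SE 0.262, adjusted p = 0.997 by edgeR). The groups overlapped for Spc25, and the libraries numbered 4 were the highest of both groups. Per exon length Spc25 was at 5.04 CPM per kb in Controls, where Ndc80, Nuf2 and Spc24 were at 0.263, 0.273 and 0.419 CPM per kb. Within a library the ratio of Nuf2 to Spc25 in CPM was 0.237 to 0.807 in libraries labelled EC-TRAIL KO and 0.0750 to 0.172 in Controls, without overlap. The other ratios to Spc25 overlapped between the groups. That of Ndc80 was 0.164 to 0.665 in libraries labelled EC-TRAIL KO and 0.0812 to 0.169 in Controls, and that of Spc24 was 0.0712 to 0.248 in libraries labelled EC-TRAIL KO and 0.0396 to 0.106 in Controls.

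The MIS12 complex joins the outer kinetochore to the inner network. Its subunits Nsl1, Dsn1 and Pmf1 had log2 fold changes of 1.47, 0.84 and 0.81 without passing (edgeR adjusted p = 0.0758, 0.123 and 0.258), and in each of the 3 every library labelled EC-TRAIL KO lay above every Control. Mis12 itself was at 14.6 to 21.9 CPM in libraries labelled EC-TRAIL KO and 14.8 to 21.7 CPM in Controls, with a log2 fold change of 0.12 (edgeR adjusted p = 0.997).

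The corona, the outermost fibrous layer of an unattached kinetochore, held the largest fold change of the 43 members. Cenpf, a large coiled-coil protein (ENSMUSG00000026605, chromosome 1, 189640606 to 189688086, minus strand), was at 16.5, 95.0, 39.8, 51.6 and 30.5 CPM in libraries labelled EC-TRAIL KO, against 6.36, 8.73, 4.62, 10.9 and 7.84 CPM in Controls. It was 6.07-fold higher, a log2 fold change of 2.60 (SE 0.401, adjusted p = 0.0432 by edgeR). Cenpe, a kinesin motor that carries chromosomes toward the spindle equator (ENSMUSG00000045328, chromosome 3, 135212537 to 135273611, plus strand), was at 9.10, 37.5, 16.6, 18.8 and 13.5 CPM in libraries labelled EC-TRAIL KO, against 4.02, 4.47, 3.16, 4.53 and 4.56 CPM in Controls. It was 4.61-fold higher, a log2 fold change of 2.20 (SE 0.314, adjusted p = 0.0432 by edgeR). Neither gene overlapped between the groups, and in both the order of the libraries labelled EC-TRAIL KO was 2, 4, 3, 5, 1 from high to low. Zw10, which brings dynein and the checkpoint proteins to the corona, was at 20.2 to 27.98 CPM in libraries labelled EC-TRAIL KO and 19.8 to 26.6 CPM in Controls, with a log2 fold change of 0.11 (edgeR adjusted p = 0.997).

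Among the 4 checkpoint members 1 rose and 3 did not pass. Bub1b, which encodes the checkpoint protein BubR1 (ENSMUSG00000040084, chromosome 2, 118598211 to 118641591, plus strand), was at 7.18, 31.4, 14.1, 14.8 and 9.99 CPM in libraries labelled EC-TRAIL KO, against 3.71, 5.37, 2.37, 5.18 and 4.02 CPM in Controls. Every library labelled EC-TRAIL KO was above every Control, and the log2 fold change was 1.90 (SE 0.359, adjusted p = 0.0438 by edgeR). Mad2l1, which encodes the inhibitor that captures Cdc20, was at 4.84, 14.4, 9.16, 9.05 and 5.74 CPM in libraries labelled EC-TRAIL KO, against 3.58, 5.39, 5.04, 4.68 and 4.70 CPM in Controls, a log2 fold change of 0.88 (edgeR adjusted p = 0.338). EC-TRAIL KO 1 lay within the Control range for Mad2l1 and the other 4 lay above it. Bub3, the partner of BubR1, averaged 51.0 ± 4.43 CPM in libraries labelled EC-TRAIL KO and 46.8 ± 3.41 CPM in Controls, and Mad1l1, which holds Mad2 at the kinetochore, 23.9 ± 3.49 CPM in libraries labelled EC-TRAIL KO and 22.4 ± 4.04 CPM in Controls (SD, n = 5 each). Their log2 fold changes were 0.12 and 0.10 (edgeR adjusted p = 0.997 for both), and that of Mad1l1 turned to -0.0015 without EC-TRAIL KO 4.

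Of the genes that guard and end sister cohesion, 1 rose and 3 did not pass. Sgo2a, a shugoshin that protects centromeric cohesin (ENSMUSG00000026039, chromosome 1, 57995971 to 58025899, plus strand), was at 3.06, 14.9, 7.43, 7.66 and 4.95 CPM in libraries labelled EC-TRAIL KO, against 1.35, 2.005, 1.67, 2.71 and 2.10 CPM in Controls, a log2 fold change of 1.95 (SE 0.362, adjusted p = 0.0432 by edgeR). The groups did not overlap. Its exons share 2455 bases with Kctd18 on the opposite strand, and Kctd18 averaged 14.8 CPM in libraries labelled EC-TRAIL KO and 15.5 CPM in Controls. Its close relative Sgo2b was at 0 in all 10 libraries. The other shugoshin, Sgo1, had a log2 fold change of 1.46 (SE 0.382, adjusted p = 0.219 by edgeR) and one library labelled EC-TRAIL KO, replicate 5, inside the Control range.

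Separase and its inhibitor securin had fold changes of opposite sign. Espl1, which encodes separase, was at 9.25, 34.4, 14.6, 17.2 and 11.02 CPM in libraries labelled EC-TRAIL KO, against 5.31, 6.39, 3.59, 7.05 and 5.06 CPM in Controls. The groups did not overlap, and the log2 fold change of 1.65 lay just outside the threshold (SE 0.324, adjusted p = 0.0528 by edgeR). Pttg1, which encodes securin, was at 23.5, 17.8, 24.1, 22.8 and 26.2 CPM in libraries labelled EC-TRAIL KO, against 27.0, 25.9, 26.0, 27.2 and 25.9 CPM in Controls. Its log2 fold change was -0.21 (SE 0.0930, adjusted p = 0.957 by edgeR), the single value below 0 among the members, and it stayed between -0.26 and -0.13 in all 18 alternative settings. The lowest of the 10 values of Pttg1 was that of EC-TRAIL KO 2, the library with the highest Espl1, and EC-TRAIL KO 5 lay within the Control range.

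The last group activates the anaphase-promoting complex and moves ubiquitin onto its substrates, and 2 of its 4 members rose. Cdc20, the activator of early anaphase (ENSMUSG00000006398, chromosome 4, 118432901 to 118437352, minus strand), was at 8.63, 31.1, 13.2, 19.5 and 11.6 CPM in libraries labelled EC-TRAIL KO, against 4.76, 6.15, 4.02, 6.59 and 5.35 CPM in Controls. All libraries labelled EC-TRAIL KO were above all Controls, and the log2 fold change was 1.64 (SE 0.302, adjusted p = 0.0432 by edgeR). Fzr1, which encodes the alternative activator Cdh1 of late mitosis and the resting phase, was at 28.4, 36.4, 28.7, 26.8 and 26.5 CPM in libraries labelled EC-TRAIL KO, against 27.2, 24.2, 23.6, 22.5 and 22.4 CPM in Controls, a log2 fold change of 0.29 (SE 0.0970, adjusted p = 0.550 by edgeR). The groups overlapped for Fzr1. Ube2c, the ubiquitin-conjugating enzyme that starts chains (ENSMUSG00000001403, chromosome 2, 164769898 to 164778822, plus strand), was at 5.98, 23.9, 13.4, 15.8 and 13.3 CPM in libraries labelled EC-TRAIL KO, against 3.69, 3.74, 2.71, 5.40 and 4.08 CPM in Controls. It was 3.69-fold higher, a log2 fold change of 1.88 (SE 0.301, adjusted p = 0.0432 by edgeR), with no overlap between the groups. Ube2s, which lengthens the chains, was at 69.0 to 98.8 CPM in libraries labelled EC-TRAIL KO and 71.0 to 78.4 CPM in Controls, with a log2 fold change of 0.24 (edgeR adjusted p = 0.755), and 4 of the 5 libraries labelled EC-TRAIL KO lay above the highest Control. Ube2c exons share 592 bases with Tnnc2 on the opposite strand, which averaged 0.149 CPM in libraries labelled EC-TRAIL KO and 0.211 CPM in Controls.

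**Figure D3:**
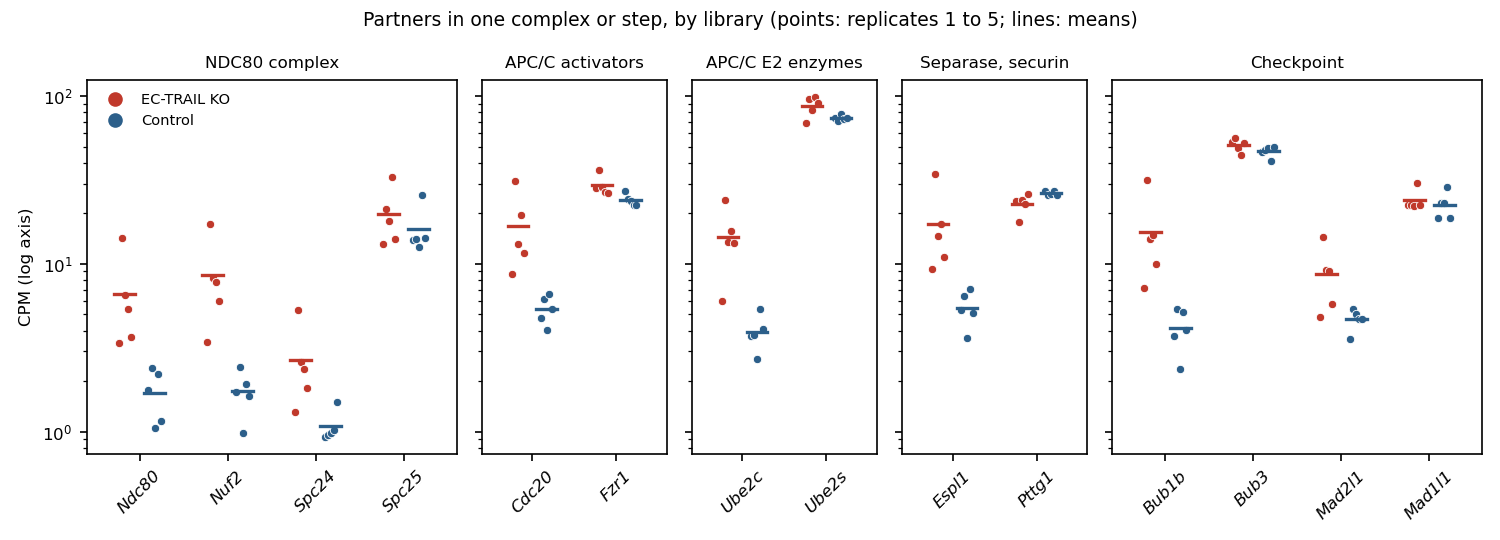
CPM on a log axis of members that work in one complex or step, with EC-TRAIL KO libraries at the left of each pair and Controls at the right; points are libraries (replicates 1 to 5 from left to right) and lines are means. Nuf2, Ndc80, Cdc20, Ube2c, Espl1 and Bub1b separate by group. Spc25, Fzr1, Ube2s, Pttg1, Bub3 and Mad1l1, which have higher Control CPM, overlap between the groups. So do Spc24 and Mad2l1, at low Control means of 1.08 and 4.68 CPM.

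The members fell along a range of levels as well as of changes. The 10 that rose had Control means of 0.137 to 2.88 CPM per kb of merged exons. The 9 members with an absolute log2 fold change under 0.2 (Cenpb, Mis18a, Cenpc1, Cenpo, Mis12, Zwint, Zw10, Bub3 and Mad1l1) had Control means of 1.00 to 35.2 CPM per kb, and their SE ran from 0.0777 to 0.150. By contrast, 21 members had a log2 fold change of at least 1, and of these 11 did not pass; their SE reached 0.507. The members that did not pass thus included both some with a small estimate and a narrow error and some with a large estimate and a wider error.

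**Figure D4:**
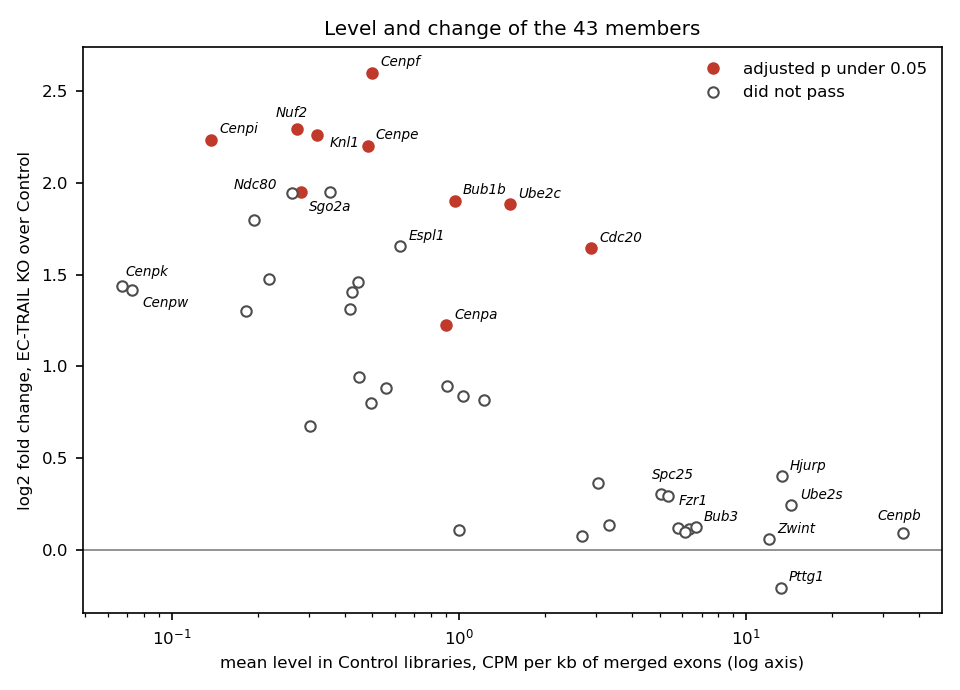
Mean level in Control libraries (CPM per kb of merged exons, log axis) against the log2 fold change, EC-TRAIL KO over Control, of the 43 members; filled points passed the test. Both axes use the Control libraries; the members that passed sit between 0.137 and 2.88 CPM per kb, and those with the highest levels, Cenpb, Ube2s, Hjurp, Pttg1 and Zwint, lie between -0.21 and 0.40.

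Across libraries the members that rose shared their highest and lowest library labelled EC-TRAIL KO, with EC-TRAIL KO 5 the fourth in each and EC-TRAIL KO 3 and 4 in either order between. EC-TRAIL KO 2 was the highest and EC-TRAIL KO 1 the lowest of its group in all 10, and over all 43 members EC-TRAIL KO 2 was the highest in 35 and EC-TRAIL KO 1 the lowest in 29. Among Controls, replicate 3 was the lowest in 9 of the 10 and replicate 1 in the remaining one, Sgo2a; the highest was Control 2 in 4, Control 4 in 4 and Control 5 in 2. The general proliferation marker Mki67 was at 86.7, 469, 187, 256 and 135 CPM in libraries labelled EC-TRAIL KO, against 32.5, 49.8, 24.3, 56.1 and 37.5 CPM in Controls, and its highest and lowest libraries labelled EC-TRAIL KO and its lowest Control were the same ones. EC-TRAIL KO 2, with the highest values, also had the fewest counts of the 10 libraries, the lowest alveolar and fibroblast marker sums and a Tnfsf10 level inside the Control range; the part of these in its values was not tested. Top2a, the topoisomerase of dividing cells, itself rose (log2 fold change 2.34, edgeR adjusted p = 0.0432), more than Cdc20 (1.64). Ratios to Top2a therefore compare sizes of rise, and a lower ratio is not a fall of the member. Cenpe had a within-library ratio to Top2a of 0.219 to 0.274 in libraries labelled EC-TRAIL KO and 0.216 to 0.299 in Controls. The ratio of Cdc20 to Top2a was 0.183 to 0.260 in libraries labelled EC-TRAIL KO and 0.308 to 0.368 in Controls, without overlap. For Ube2c it was 0.141 to 0.262 in libraries labelled EC-TRAIL KO and 0.187 to 0.275 in Controls, and for Cenpf 0.496 to 0.602 in libraries labelled EC-TRAIL KO and 0.423 to 0.521 in Controls.

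**Figure D5:**
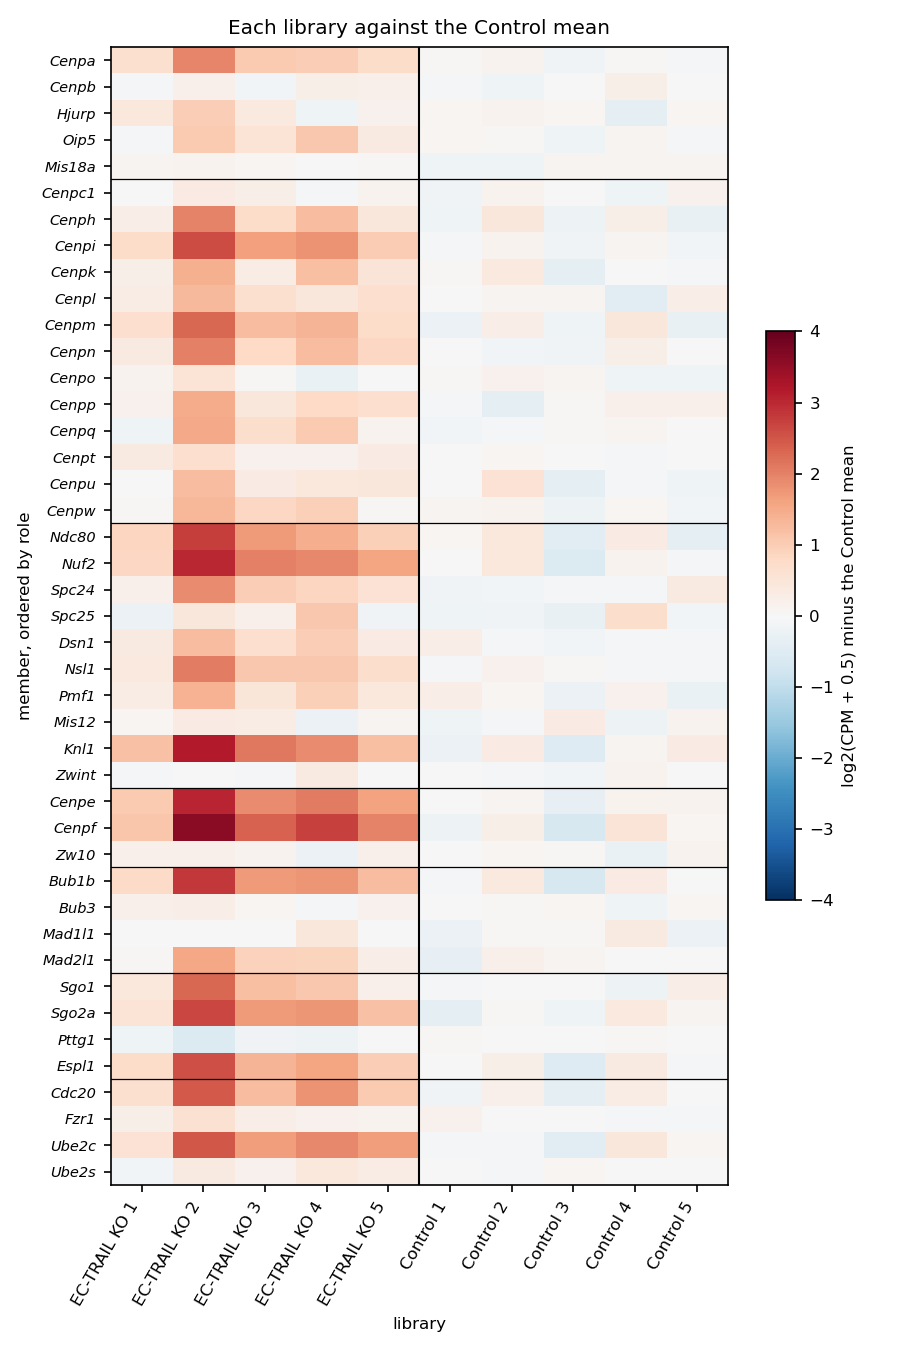
Each library's log2(CPM + 0.5) minus the mean of the 5 Controls, for the 43 members in rows by functional group (lines separate groups) and libraries in columns, EC-TRAIL KO at the left. EC-TRAIL KO 2 has the highest value of its group in 35 of 43 rows, and Cenpb, Mis18a, Zwint, Zw10 and Bub3 stay pale in all 10 columns.

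Other genes of the same machinery were read from the same whole-table test. Their lists were chosen with earlier results of these data known, so their counts are no separate evidence. Of 17 further kinetochore and checkpoint genes, 5 rose, 0 fell and 12 did not pass, where 0.439% of all tested genes were called higher and 0% lower. Their median log2 fold change was 1.54, against -0.0085 for all tested genes. DESeq2 called 11 of the 17 higher, against 1.16% of all tested genes, and edgeR without EC-TRAIL KO 2 called 6 higher, against 0.476%. With limma-voom 0 of the 17 were called, and 12 were higher at an unadjusted p under 0.05, against 668 of all 17997 tested genes. Those that rose were Kntc1, a partner of Zw10 in the corona (2.08), the checkpoint kinase gene Ttk (2.33), and 3 genes of the chromosomal passenger complex that corrects wrong attachments, Aurkb (2.46), Birc5 (2.16) and Cdca8 (2.35); edgeR adjusted p was 0.0438 for Kntc1 and 0.0432 for the other 4. Kntc1 averaged 10.8 ± 7.13 CPM in libraries labelled EC-TRAIL KO and 2.53 ± 0.786 CPM in Controls (SD, n = 5 each), where its partner Zw10 had the log2 fold change of 0.11 given above. A further list of 15 genes held the core subunits of the anaphase-promoting complex and its inhibitor. With edgeR 0 of them passed. At an unadjusted edgeR p under 0.05, 1 was higher and 0 lower, against 3.81% and 1.32% of all tested genes. For this list limma-voom called 0 and DESeq2 called 1, Fbxo5. The median log2 fold change of that list was -0.0365, against -0.0085 for all tested genes. Fbxo5, which encodes the inhibitor Emi1, had a log2 fold change of 0.84 (edgeR adjusted p = 0.273), and the subunit genes Cdc26 and Anapc5 had -0.12 and 0.08 (edgeR adjusted p = 0.997 for both). Of 9 cohesin genes, 0 passed with edgeR. At an unadjusted edgeR p under 0.05, 1 was higher and 0 lower, beside the same shares of all tested genes, 3.81% and 1.32%. Here limma-voom called 0 and DESeq2 called 1, Cdca5. The median of the 9 log2 fold changes was 0.019. Cdca5, which encodes sororin, had a log2 fold change of 2.27 (edgeR adjusted p = 0.0707), and Rad21, the subunit that separase cuts, and Pds5a had 0.17 and 0.10 (edgeR adjusted p = 0.997 for both).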

How the data were processed

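The data are poly-adenylated RNA of sorted lung endothelial cells, made into libraries with a stranded kit, per the labels' protocols. The authors deposited 1 table of expected counts per gene, not normalized; the submitters' processing notes name STAR 2.7.1a, RSEM 1.2.28 and GRCm38. For the gene annotation, any filter and the strandedness of counting, the sources used here give nothing. Of the deposited values 81.2% are whole numbers (tolerance 1e-09). Symbols and positions came from GENCODE M21 (GRCm38), in which 55144 identifiers matched and 241 did not.

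Expected counts were rounded and tested in R 4.3.3 with edgeR 4.0.16 (limma 3.58.1, DESeq2 1.42.0 for alternatives). filterByExpr with a minimum count of 10 kept 17997 genes and removed 37388; TMM factors, estimateDisp and the default quasi-likelihood F-test with group as the only term followed, with Benjamini-Hochberg adjustment over all genes tested and a threshold of 0.05. SE is the log2 fold change divided by the square root of F. CPM used TMM library sizes; levels per kb divide CPM by the merged exon length. In counts simulated at the depths of this comparison (17697 genes tested, changed genes at a mean CPM of at least 1), recovery was 56.7% for a 1.5-fold change, 88.1% for 2-fold and 100% for 4-fold, with 13 false calls among 176. Whether these rates hold for the members was not tested. In the measured counts 79 genes were called higher. Of the 21 members with a log2 fold change of at least 1, 10 passed. Ndc80 at 3.85-fold and Cenpm at 3.86-fold did not (edgeR adjusted p = 0.0616 and 0.0773). Libraries within a group differed by a chi-square of at least 26.2 per degree of freedom, so none was a copy of another. Each was counted as its own sample, but this check cannot show that each came from a mouse of its own. The alternatives were RLE factors, library size only, 2 other low-count filters, DESeq2, limma-voom, the replicate number as a block and leaving out each library. Members and lists were chosen with earlier results of these data known; members that passed are given in every library, the others by role, and other genes of the machinery if they passed or had 1 of the 3 smallest p of their list. A gene of these lists is not reported here, and the counts leave it out.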

Additional observations from a re-analysis of the deposited data

Results flagged for a closer look

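In 86 sets of 5 values (43 members in each group), 11 had 1 library further from the others than Dixon's 95% criterion for 5 values allows. In independent sets of normally distributed values chance flags about 1 in 20. These sets come from the same 10 libraries and are not independent, so that rate is only a guide. Values are in CPM, and the cause was not tested.

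EC-TRAIL KO 2 was the high library in 4 of them, with Cenpa at 21.96 (next highest 11.41), Cenpu at 3.384 (next 1.792), Nsl1 at 6.304 (next 3.025) and Fzr1 at 36.43 (next 28.72). Libraries numbered 4 made up 5. EC-TRAIL KO 4 had Zwint at 68.31 (next 53.95), Mad1l1 at 30.17 (next 22.49) and, as the lowest of its group, Zw10 at 20.2 (next lowest 26.62). Control 4 had Spc25 at 25.72 (next 14.2) and, as the lowest of its group, Hjurp at 84.24 (next lowest 115.4). None of these 5 members passed the comparison of the groups. The last 2 sets were Controls, with Spc24 at 1.508 in Control 5 (next 1.019) and Dsn1 at 4.225 in Control 1 (next 3.342).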

How the results depend on the processing

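Of the 18 alternative settings, 9 kept all 10 members called (10 to 21 members higher) and 9 left 0 members called by edgeR or limma-voom. In those 9, only 2 of all tested genes were called higher. At an unadjusted p under 0.05, 30 or 31 members were then higher, against 577 to 789 of the 17997 to 18306 genes tested. In any setting 0 members were called lower, and the 10 had log2 fold changes of 0.91 to 2.82 over all settings. Library size only and limma-voom each gave 0 members and 2 genes in all, Esr1 and Gm8748, and with library size only the smallest adjusted p of the 10 was 0.0501. Without a low-count filter 141 genes were higher and 2 lower, and 15 members passed. DESeq2 gave 208 higher, 3 lower and 21 members. The edgeR estimation that adjusts the deviance, chosen after seeing the data, gave 79 genes and 10 members; the legacy estimation planned as an alternative is the default of this edgeR version and was not run separately. With each library left out in turn, genes higher ran from 2 to 154, genes lower from 0 to 1, members higher from 0 to 15 and the members' median log2 fold change from 0.79 to 1.12; the cause of the changes in calls was not tested. In those fits Cenpo ran from -0.027 to 0.19, Zwint from -0.026 to 0.10 and Mad1l1 from -0.0015 to 0.20. With the replicate number as a block, 146 genes were higher and 3 lower, and 15 members passed, the 10 and Cenph, Cenpm, Espl1, Ndc80 and Nsl1. The numbers were taken as pairs only if all 5 same-numbered pairs had deviations correlated above 0.1; replicate 2 was at 0.0679 and the other 4 at 0.114 to 0.433, so the unblocked fit was kept. As a hint from the data and not from the design, 4 of 5 libraries labelled EC-TRAIL KO correlated best with the Control of their own number. Cenph, Cenpk and Cenpw, each under 1 CPM in Controls, had the 3 widest errors of the 43 members (SE 0.431 to 0.507).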
